A study of Mus musculus with 6 samples.

Results

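Among the cells sorted from mouse lung tumours as neoplastic, 227 of the 12183 cells that passed the limits on quality were fibroblasts by their collagen and decorin transcripts, a share of 1.86% (95% exact binomial interval 1.63 to 2.12). They were chosen by their measured counts: each had at least 500 detected genes, at most 20% mitochondrial counts, and at least 10 unique molecular identifiers (UMIs) summed over Col1a1, Col1a2, Col3a1 and Dcn, with at least 3 of these 4 genes detected. A UMI marks 1 captured transcript copy, so that copies made by PCR are counted once. The remaining 11956 cells that passed the first 2 limits are called the other cells here, and the whole matrix held 16017 cells. Because the counts chose the cells, every difference between the fibroblasts and the other cells below is a description, and no test was run on it.

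The cells came from 6 mice (4 male, 2 female), all carrying the alleles Lkb1XTR/XTR and Rosa26LSL-tdTomato, of which 4 also carried FLPo-ERT2. Lentiviral Cre given into the trachea switched on tdTomato, a red fluorescent protein, and turned the XTR cassette of Lkb1 (gene symbol Stk11) so that a gene trap ending in a green fluorescent protein (GFP) sequence truncated the transcript, and tumours then grew for 20 weeks. Over 2 further weeks, 3 mice labelled Restored (FLPo-ERT2, tamoxifen at 4 mg per dose) had the trap removed by the tamoxifen-dependent recombinase, and 3 mice were labelled NonRestored: 1 without FLPo-ERT2 on tamoxifen, 1 without it on vehicle, and 1 with it on vehicle. Cells positive for CD45, CD31, F4/80 or Ter119, which mark leukocytes, endothelium, macrophages and red cells, were gated out, and tdTomato-positive cells were sorted, a gate that holds no marker of fibroblasts. The matrix pools all libraries without a key from cells to mice. It is therefore 1 sample, Restored and NonRestored mice were not compared, and fibroblasts that share a trait may all come from 1 mouse or 1 library. All intervals cover counting error only.

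Fibroblasts build and remodel the scaffold of connective tissue. They secrete fibrillar collagens, which give tensile strength, elastin and the microfibrils that support it, which let the lung recoil, and small proteoglycans such as decorin that coat collagen fibrils. In the lung they lie beside the alveoli, in the adventitia around vessels and airways, and as contractile myofibroblasts, and those in tumours are often called cancer-associated fibroblasts.

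Several markers outside the 4 selecting genes were found in most of the cells. They were chosen with earlier results of these data known, so they describe the label and are no independent support for it. Mgp, the matrix Gla protein that inhibits calcification of soft tissue, was found in 224 of the 227 cells, and Eln (elastin), Mfap5 (a glycoprotein of microfibrils), Bgn (biglycan) and Pdgfra (a receptor for platelet-derived growth factor) were detected in 91.2%, 89.4%, 100% and 84.6% of them. In the other cells Mgp was detected in 9.79% and the same 4 genes in 1.67%, 0.544%, 5.85% and 0.159%. All 7 markers listed for these cells (Mgp, Eln, Mfap5, Ibsp and the selecting genes Dcn, Col3a1 and Col1a2) were higher in the fibroblasts, but Ibsp, the integrin-binding sialoprotein best known from bone, was found in only 78 of 227, so it marked a subset. Of the markers of other cell types, the pan-leukocyte gene Ptprc had 0 UMIs in the fibroblasts, which at the 3 counts that a count of 0 allows sets a limit of 0.730 CPM. CPM is the count of a gene for each 1000000 UMIs, taken from the UMIs summed over all cells of a class, so that deep cells weigh more.

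The fibroblasts were somewhat shallower than the cells around them. They held 4107377 UMIs, with a median of 16360 per cell (range 1081 to 111308) and 4309 genes, against medians of 19419 UMIs and 4168 genes in the other cells. Their median mitochondrial share was 3.05%, against 3.71%. The sum over the 4 selecting genes ran from 10 to 1468 UMIs with a median of 198, and 198 cells had all 4 genes. Just inside the minimum, 16 cells had 10 to 19 such UMIs, a median total of 3072 UMIs, and Mgp in 15 of them (median 45.5 Mgp UMIs). Just outside, 10 cells with 5 to 9 UMIs and at least 3 genes detected had a median total of 2042.5 UMIs and Mgp in all 10 (median 28). The cells just below the minimum thus carried Mgp as those above did, while 1 cell under the gene minimum and 11 over the mitochondrial limit met the collagen rule but entered neither class. Since cells below the collagen minimum count among the other cells, the ratios below depend on the rule: the log2 ratio of Mgp was 11.42, and it was 11.82 with a minimum of 5 UMIs, 11.08 with 20 UMIs and 9.38 with all 4 genes required.

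**Figure D1:**
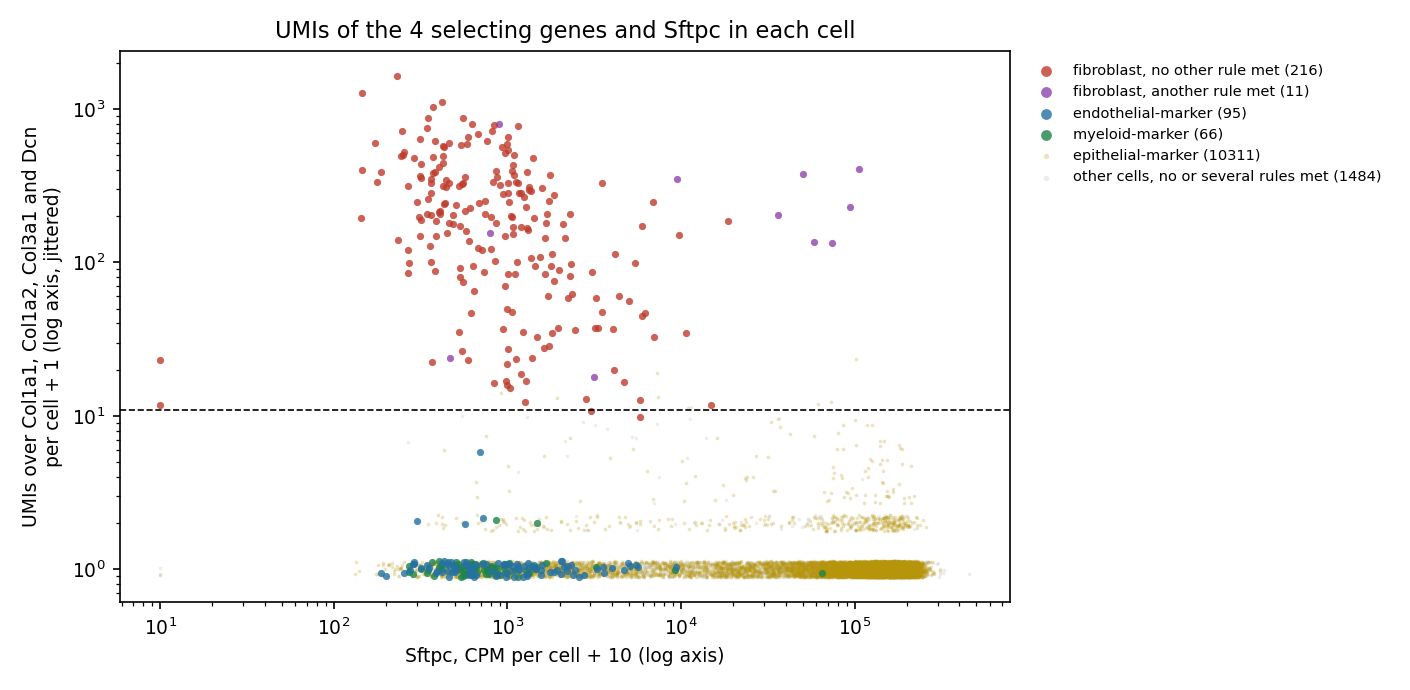
Each point is 1 of the 12183 cells, with the UMIs over the 4 selecting genes plus 1 (log axis, jittered) against the Sftpc level in CPM plus 10 (log axis); colours give the class of the cell and the dashed line marks the minimum of 10 UMIs. The 216 fibroblasts that met no other rule lie above the line and mostly left of the epithelial-marker cells, while several of the 11 that met another rule reach the Sftpc levels of epithelial-marker cells.

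Of the fibroblasts, 11 also met a rule for another cell type (at least 10 UMIs over 4 markers with at least 3 detected), and these are called mixed cells. Epithelial markers (Epcam, Cdh1, Cldn18, Nkx2-1) were met in 9, endothelial markers (Pecam1, Cdh5, Ramp2, Cldn5) in 4, and both in 2, while none met the myeloid rule (Ptprc, Tyrobp, Fcer1g, Laptm5). The mixed cells had a median of 35832 UMIs, against 15807.5 in the 216 other fibroblasts. Whether a droplet held 1 cell or several was not tested, and no caller of doublets was run. Under the same rules 95 cells were endothelial-marker, 66 myeloid-marker and 10311 epithelial-marker cells with no second rule met, and these serve as comparators.

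Mgp was the most abundant transcript of the fibroblasts, with 3.54% of all UMIs, ahead of the nuclear RNA Malat1 (3.29%). The next in order were Fth1 (a ferritin chain), Igfbp7, Cst3 (a secreted protease inhibitor), Gm42418, the mitochondrial mt-Co3 and mt-Atp6, Sparc (a collagen-binding protein) and Sftpc. Sftpc was at 5596 CPM with the mixed cells and 955 CPM without them. Of 9456 genes at 10 CPM or more in either class, 2071 were at least 2-fold higher in the fibroblasts (21.9% of those compared), 1203 were at least 2-fold lower (12.7%), and the median log2 ratio of all 9456 genes was 0.21. At 100-fold or more, 426 genes were higher and 11 lower. Nothing is read from these counts, since the same cells defined the contrast. A gene near 0 in the other cells could reach 10 CPM only through the fibroblasts. Its call as higher was then set by the filter, here and in the lists below.

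Fibrillar collagens form the fibrils of the interstitial matrix. Of 11 genes, 8 reached the minimum and all 8 were higher, with a median log2 ratio of 10.86 beside 0.21 for all genes. This list holds 3 of the genes that chose the cells. Its genes summed to 4.33 CPM in the other cells, so the 8 reached the minimum only through the fibroblasts. That all 8 were higher was thus set by the filter. The 2 chains of type I collagen were at 3676 CPM for Col1a1 (3618 to 3735) and 2728 CPM for Col1a2 (2678 to 2779), against 1.92 and 0.364 CPM in the other cells. Col5a2 and Col5a1, chains of the type V collagen that starts fibrils and took no part in the choice, were at 812 and 179 CPM against 0.447 and 0.182. Col2a1 and Col11a2, collagens of cartilage, were at 0.

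The enzymes and chaperones that mature collagen followed the same pattern, with 17 of 20 compared genes higher, none lower and a median log2 ratio of 4.07. Serpinh1, the collagen chaperone HSP47, was at 1081 CPM against 141, a ratio of 7.67 (7.43 to 7.91). Pcolce, which speeds removal of the procollagen C-propeptide, was at 400.3 CPM against 33.0, and its relative Pcolce2 at 224 against 0.0909. The crosslinking oxidases Loxl1, Loxl2 and Lox were at 271, 261 and 158 CPM, and none exceeded 0.502 CPM in the other cells.

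All 17 genes of elastic fibres and microfibrils were higher, with a median log2 ratio of 8.06. Eln was at 3657 CPM (3599 to 3716) against 1.51, and in endothelial-marker cells it was at 117 CPM. Mfap5 was at 1804 CPM against 0.684, Ltbp2, which binds fibrillin and fibulin, at 880 against 1.32, and Fbn1, the fibrillin of microfibrils, at 438 against 0.158. Mfap4 had a high level (406 CPM) but was detected in only 34.8% of the fibroblasts, whereas Fbn1 was detected in 87.7%, and in the other cells the shares were 0.234% and 0.284%.

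Small leucine-rich proteoglycans bind collagen and growth factors. The 9 compared of 11 genes were all higher, with a median log2 ratio of 10.91, and Dcn, at 4762 CPM (4695 to 4829), is a selecting gene. The list summed to 9.99 CPM in the other cells, so these 9 reached the minimum only through the fibroblasts. Bgn was at 3900 CPM against 7.56, Prelp at 398 against 0.142, and Fmod (fibromodulin) at 108 against 0.130. Lum (lumican) reached 251 CPM but was detected in 27.8% of the cells, against 0.0502% of the other cells.

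Matricellular proteins, which modulate how cells contact the matrix, had 15 of 16 genes higher. Mgp was at 35359 CPM (35177 to 35541), 2744-fold the 12.9 CPM of the other cells, and in endothelial-marker cells it was at 148 CPM. This ratio depended on the weighting: with each cell weighing the same, the log2 ratio of Mgp was 8.62 in place of 11.42, and those of the 7 markers ran from 8.36 (Mfap5) to 10.72 (Col1a2) in place of 11.24 (Eln) to 12.87 (Col1a2). Sparc (5638 CPM), Sparcl1 (2935), Fn1 (fibronectin, 2415) and Cyr61 (2094) followed. Sparc and Sparcl1 were not particular to the fibroblasts, since endothelial-marker cells held 4192 and 1905 CPM of them, while Fn1 was at 18.9 CPM there. Per cell, Mgp ranged from 0 to 238749 CPM with a median of 24095, and the 23 highest cells held 42.9% of its UMIs.

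Among matrix proteases and their inhibitors, 14 of 15 compared genes were higher and none lower. Of the inhibitors, Timp3 was at 1645 CPM, Timp1 at 583 and Timp2 at 546, against 185, 2.92 and 142 in the other cells. Mmp14, a collagenase anchored in the membrane, was at 360 CPM and the secreted protease Htra1 at 717. Mmp12, an elastase of macrophages, was at 0.

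Of the collagens that do not form fibrils, 10 of 11 compared genes were higher (median log2 ratio 5.26), with Col6a3 at 401 CPM, Col6a1 at 371 and Col6a2 at 203.5, the 3 chains of the beaded type VI collagen. Basement membrane genes split instead. Of 18, 9 were higher and 5 lower, with a median log2 ratio of 0.90. Col4a1 (844 CPM), Col4a2, Lamb1, Nid1 and Lama2, the laminin chain of muscle and mesenchyme, were 3.43-fold to 3902-fold higher, while the epithelial laminin chains Lama3 and Lamb3 and the type IV chains Col4a3 and Col4a4 were 7.23-fold to 15.6-fold lower. Endothelial-marker cells exceeded the fibroblasts for Col4a1, at 1812 CPM.

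**Figure D2:**
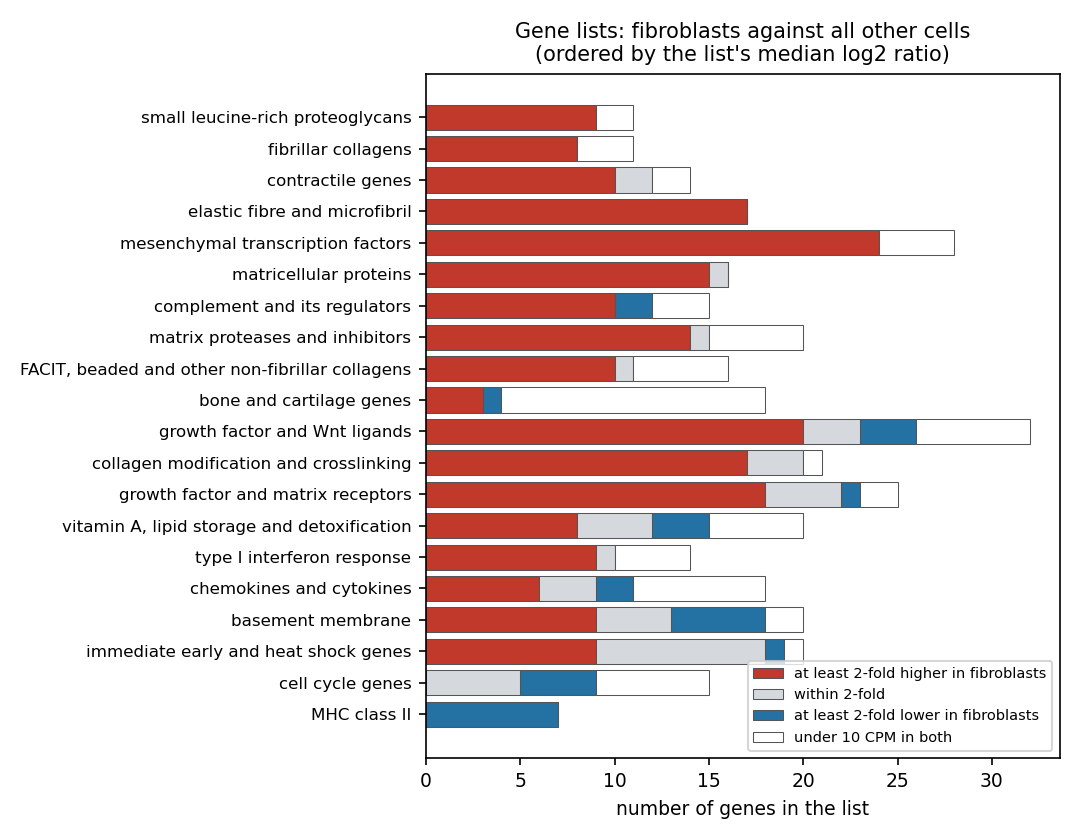
Each bar is 1 of the 20 gene lists, split by how many of its genes were at least 2-fold higher in the fibroblasts (red), within 2-fold (grey), at least 2-fold lower (blue) or under 10 CPM in both classes (white); lists are ordered by their median log2 ratio. Matrix lists and mesenchymal transcription factors are almost wholly red, basement membrane genes are mixed, and all 7 MHC class II genes are blue.

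Transcription factors of the mesenchyme were higher in 24 of 24 compared genes, with a median log2 ratio of 7.48. Prrx1, a homeobox factor of connective tissue, was at 169 CPM against 0.0395, and Tbx4, which is expressed in the mesenchyme of the developing lung, was at 174 CPM against 0.0672. Zeb2 and Tcf4, at 432 and 486 CPM, were also present in myeloid-marker cells (297 CPM of Zeb2) and endothelial-marker cells (930 CPM of Tcf4).

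Receptors for growth factors and matrix were higher in 18 of 23 compared genes. Pdgfra was at 452 CPM (432 to 473) against 0.0869, a ratio of 5203 (3426 to 8323), and had 0 UMIs in both endothelial-marker and myeloid-marker cells, which at 3 counts sets limits of 2.10 and 1.91 CPM. Pdgfrb was at 258 CPM and Fgfr1 at 272, against 0.146 and 0.265. The receptor Fgfr2, which lung epithelium uses to respond to fibroblast signals, was the 1 gene of the list that was lower, at 29.7 CPM against 68.2.

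Of 26 compared ligands, 20 were higher and 3 lower. Igf1, insulin-like growth factor 1, was at 1190 CPM against 0.616, and 93.0% of the fibroblasts had at least 1 UMI of it, against 0.686% of the other cells. Wnt5a, a ligand of non-canonical Wnt signalling, was at 209 CPM against 6.22, Tgfb1 at 175 against 39.7 and Bmp5 at 124 against 16.9. Bmp4 did not separate the classes: its levels were 193 and 204 CPM, and the interval of the ratio ran from 0.883 to 1.02. The epidermal growth factor receptor ligand Areg was 15.1-fold lower, Vegfa 2.54-fold lower and Bmp2 2.42-fold lower.

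Chemokines and cytokines gave 6 higher, 2 lower and 3 within 2-fold of 11. Cxcl14 was the most abundant at 1545 CPM against 1.62, and 88.5% of the fibroblasts had a UMI of it, against 0.912% of the other cells. Cxcl12, which retains cells that bear Cxcr4, was at 224 CPM against 3.53, but endothelial-marker cells held more of it, at 532 CPM. Il33, an alarmin of barrier cells, was at 66.5 CPM against 353, and the neutrophil attractant Cxcl2 at 1.46 against 32.6, with 3490 CPM in myeloid-marker and 8.44 in epithelial-marker cells.

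Complement genes were higher in 10 of 12 compared. Serping1, the inhibitor of C1, was at 1163 CPM against 0.846, and C4b at 307 against 2.10. C3 was higher by 5.16-fold (268 against 52.0 CPM), although fewer fibroblasts (28.2%) than other cells (41.4%) had a UMI of it. Clu (clusterin) and Cd55, both regulators of complement, were 13.0-fold and 2.32-fold lower.

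Contractile genes were higher in 10 of 12 compared, and none was lower. Acta2, smooth muscle actin, was at 1297 CPM (1263 to 1332) against 0.360, Tagln (transgelin) at 1048 against 2.71, and Mylk, the kinase of myosin light chain, at 436 against 48.3. Tpm1 and Cnn2, at 1072 and 342 CPM, were within 2-fold of the other cells.

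Genes of vitamin A handling, lipid storage and detoxification gave 8 higher, 3 lower and 4 within 2-fold of 15. Aldh1a1 and Adh1, which oxidise retinal and retinol, were at 220 and 211 CPM against 15.5 and 0.0830. The lipid droplet gene Plin2 was at 203 and 198 CPM in the 2 classes. Cd36, Fabp5 and Dhrs3 were 6.34-fold, 7.36-fold and 3.02-fold lower.

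Few genes of bone and cartilage were measured. Of 18 genes, 14 were under the minimum, and 8 of those were at 0 in the fibroblasts, among them Sp7 and Bglap2, which osteoblasts use, and the cartilage core protein Acan. Of the 4 compared, 3 were higher and 1 was lower, and Ibsp had the highest level, at 2786 CPM (2735 to 2837). Runx2, the master factor of osteoblasts, was at 30.7 CPM against 3.46, Phex at 18.0 against 0.122, and Sox9 at 6.09 against 13.4.

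Interferon response genes were higher in 9 of 10 compared, with a median log2 ratio of 2.08. Bst2 was 2.99-fold higher and Isg15 7.31-fold. Endothelial-marker cells were at 189 and 70.7 CPM for the same genes, above the 103 and 56.5 CPM of the fibroblasts. Immediate early and heat shock genes, which tissue dissociation can induce, gave 9 higher, 1 lower and 9 within 2-fold of 19, with Fos at 4084 CPM against 2704, Jun at 3345 against 2455, Junb at 2639 against 1209, Hspa8 at 2402 against 2333 and Fosb at 1688 against 1336. The 1 lower gene was Atf3, at 389 CPM against 827. Their part in the other results was not tested.

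Of 9 cell cycle genes compared, none was higher, 4 were lower and 5 were within 2-fold, with a median log2 ratio of -0.54. Mki67 was at 6.33 CPM in the fibroblasts against 13.9 in the other cells and 49.0 in endothelial-marker cells. Birc5, Cenpf and Ube2c, at 6.09, 4.38 and 2.68 CPM, were the other lower genes. These calls rest on few UMIs, 25 for Birc5 and 18 for Cenpf. Birc5 was found in 1.76% of the fibroblasts against 2.75% of the other cells, but Cenpf in 3.96% against 3.45%. Without the mixed cells 6 of the 9 were lower and Mki67 was at 3.02 CPM.

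All 7 MHC class II genes were lower, with a median log2 ratio of -4.33. Cd74, the invariant chain, was at 247 CPM against 5031, and H2-Aa and H2-Ab1 at 30.7 and 26.3 against 828 and 554. H2-Eb1, H2-DMb1 and H2-DMa were at 22.9, 27.3 and 6.33 CPM against 461, 152 and 83.5, and Ciita, the transactivator of the class, was 10.8-fold lower. The mixed cells added to these levels: without them Cd74 was at 41.5 CPM, and the 7 genes summed to 84.1 CPM in place of 362.

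Outside the lists, the 15 genes with the highest ratio among those at 100 CPM or more in the fibroblasts were Chp2, Ms4a4d, Islr, Dkk3, Csmd1, Mark1, Angpt1, Pdgfrl, Nrcam, C1qtnf7, Svep1, Gfra2, Scube1, Sulf1 and Hmcn1. Angpt1, an angiopoietin that acts on the endothelial receptor Tek, was at 157 CPM against 0.0435, and Sulf1, which trims heparan sulfate, at 238 against 0.115. In the other direction the 5 leading genes were Chil3, Dlk1, Retnla, Kng2 and Dmkn. Chil3, a chitinase-like protein of macrophages, was at 20349 CPM in the 66 myeloid-marker cells and 0.912 CPM in epithelial-marker cells, so its level in the other cells rested on the former. Retnla had 990.6 CPM in the other cells against 4.87 in the fibroblasts, a 203-fold difference (132 to 333), and Dlk1, a Notch-related protein of progenitor cells, 367 against 0.974.

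Markers of other cell types were measured as whole lists. All 12 genes of alveolar type II cells (ATII) and all 12 of epithelium were lower in the fibroblasts, with summed levels of 7422 and 503 CPM against 167279 and 7239 in the other cells. Alveolar type I (ATI) markers were lower in 7 of 9 compared and airway markers in 4 of 4. Endothelial markers were higher in 6 of 8 compared and lower in 1. Without the mixed cells 2 were higher and 5 lower, Pecam1 was at 1.37 CPM (1057 in endothelial-marker cells), and Eng, a co-receptor for TGF-beta ligands that fibroblasts can also express, was at 211 CPM. Myeloid markers were lower in all 4 compared, with a summed level of 9.74 CPM against 92.3 in the other cells. That level rested on the myeloid-marker cells, at 12810 CPM, while epithelial-marker cells were at 5.50 CPM, below the fibroblasts. Lymphoid markers were lower in the 1 gene compared, Cd79b, and Cd3e, Nkg7, Cd79a and Ms4a1 were among those at 0. Of 6 erythroid markers none reached the minimum. Of 6 Schwann cell markers, S100b was higher (84.0 CPM against 0.277), Mbp was lower, and the defining gene Sox10 was at 0.

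Lists for types of fibroblasts and for cells of vessel walls were mostly higher: adventitial fibroblast 9 of 11, alveolar fibroblast 9 of 11, alveolar myofibroblast 10 of 11, matrix-producing activated fibroblast 9 of 9, inflammatory fibroblast 6 of 9, pericyte 9 of 10, smooth muscle 5 of 5 and mesothelial 4 of 4. The smooth muscle list summed to 1.12 CPM in the other cells, so its 5 compared genes reached the minimum only through the fibroblasts. Under the minimum in both classes were 3 of its 8 genes and 4 of the 8 mesothelial genes. Some genes of these lists rested on few cells. Rgs5, a gene of pericytes, had 448 UMIs in 14 cells, of which the 5 highest held 96.7%. Msln (mesothelin) had 379 UMIs, and 1 cell held 99.2% of them. Myh11, the smooth muscle myosin, was found in 13 of 227 cells. Others were spread more widely, with the pericyte gene Trpc6 in 115 cells, the mesothelial gene Upk1b in 101 and the smooth muscle gene Des in 155.

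By the same form of rule (at least 10 UMIs over 5 markers, at least 3 detected, markers taken from the lists after their values had been seen), 6 fibroblasts met pericyte markers (Rgs5, Higd1b, Cox4i2, Notch3, Cspg4), 2 met mesothelial markers (Msln, Upk3b, Upk1b, Wt1, Nkain4) and 9 met smooth muscle markers (Myh11, Actg2, Des, Cnn1, Lmod1). The 6 cells with pericyte markers had low collagen, with a median of 31.5 UMIs over the 4 selecting genes, Pdgfrb at 753 CPM and Pdgfra at 120 CPM. The 2 cells with mesothelial markers had no UMI of Pdgfra, Pdgfrb or Mfap5. The 9 cells with smooth muscle markers were rich in collagen, with a median of 547 UMIs, Dcn at 11086 CPM, Acta2 at 6664 CPM and Pdgfra in 7 of 9. Most fibroblasts thus met none of the 3 rules.

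TdTomato, the reporter of cells in which Cre had acted and the protein used for the sort, was low in the fibroblasts. In the 216 cells that met no other rule it was at 174 CPM (160 to 188), against 7318 CPM in epithelial-marker cells, a ratio of 42.2 (39.0 to 45.7). The median over these 216 cells was 147 CPM, and 2 of them were at 1000 CPM or more, against 10171 of 10311 epithelial-marker cells. With the mixed cells included the level was 670 CPM (645 to 696), since the 11 mixed cells were at 4508 CPM.

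The level in endothelial-marker cells, which the sort also meant to leave out, was 438 CPM, and in myeloid-marker cells 2147 CPM. The fibroblasts without mixed cells were lower than both, by 2.52-fold (2.25 to 2.82) and 12.4-fold (11.4 to 13.5). Where cells of several rules were kept in every class, the levels were 670 CPM in the fibroblasts, 921 in endothelial-marker and 2460 in myeloid-marker cells. When each cell was thinned to 5000 UMIs, 53.9% of 178 such fibroblasts had a TdTomato UMI, against 89.3% of 75 endothelial-marker cells. Without thinning the shares were 84.3% and 95.8%, over all 216 and 95 cells, with median depths of 15807.5 and 12397 UMIs. The share in the fibroblasts lay below that in endothelial-marker cells and is not read as expression of the reporter.

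**Figure D3:**
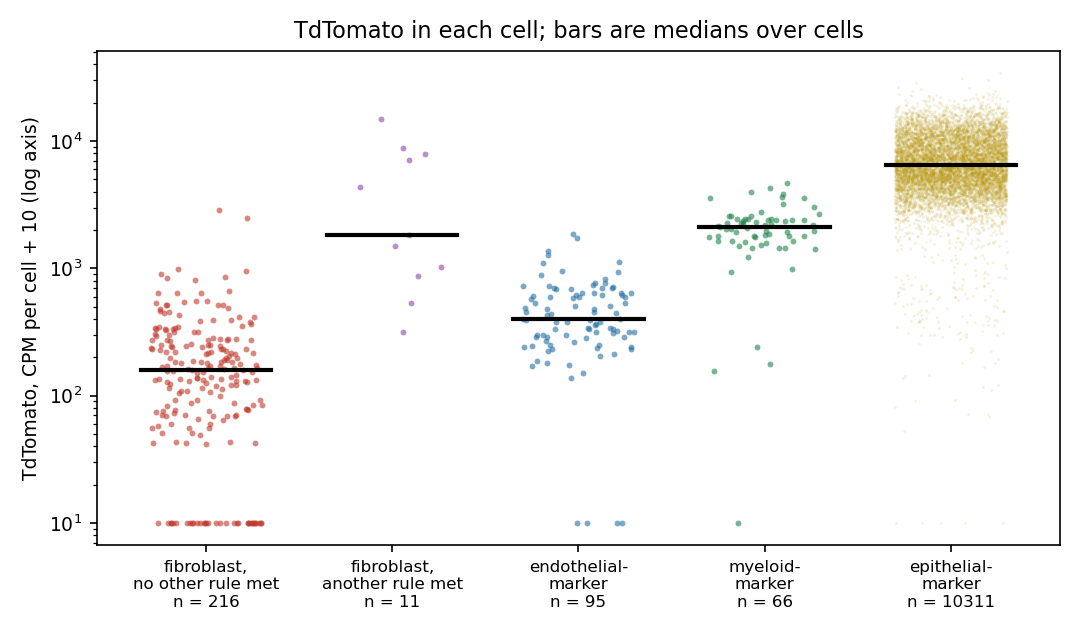
Each point is the TdTomato level of 1 cell in CPM plus 10 (log axis), for fibroblasts without and with another rule met and for the 3 comparator classes; black bars are medians over cells. Fibroblasts that met no other rule have the lowest median (147 CPM before 10 is added), with 2 of 216 at 1000 CPM or more, and epithelial-marker cells have a median of 6431 CPM.

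Surfactant RNA was near the level of endothelial-marker cells, and which of the 2 classes held less depended on the weighting. Sftpc, which encodes surfactant protein C of ATII cells, was at 955 CPM in the 216 fibroblasts, 852 in endothelial-marker cells, 1962 in myeloid-marker cells and 120118 in epithelial-marker cells. Over single cells, its median was 875 CPM in the 216 fibroblasts and 940 in endothelial-marker cells. The 12 ATII markers together made up 0.132% of the UMIs of the 216 fibroblasts, 0.124% in endothelial-marker cells, 5.46% in the mixed cells and 17.0% in epithelial-marker cells. Per 100 Sftpc UMIs there were 18.2 TdTomato UMIs in the 216 fibroblasts (16.7 to 19.8), 51.4 in endothelial-marker, 109 in myeloid-marker, 10.9 in mixed and 6.09 in epithelial-marker cells. The ratio thus differed between the classes, with the fibroblasts between the mixed and the endothelial-marker cells. Where the TdTomato UMIs of the fibroblasts came from was not tested.

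GFP and Stk11 report on the XTR cassette. GFP had 1 UMI in the 216 fibroblasts (0.275 CPM, 0.00696 to 1.53) and 9 UMIs in the mixed cells, against 6834 UMIs and 28.2 CPM in epithelial-marker cells, a ratio of 103 over the 216 cells with an interval of 18.4 to 4053. Stk11 (chr10:80115803-80130682, mm10, forward strand) was at 15.1 CPM in the same cells (55 UMIs, 11.4 to 19.7) and 21.8 CPM in epithelial-marker cells, a ratio of 1.44 (1.10 to 1.91). Between the fibroblasts and endothelial-marker cells no difference in Stk11 was detectable at this depth, with a ratio of 0.972 and an interval of 0.559 to 1.63. The epithelial level averages mice with and without the trap. The fibroblast and endothelial-marker levels come from the same pool of mice, and no level can be split by mouse here.

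The fibroblasts were not uniform. Acta2, Mfap5 and Pdgfra were compared in 189 cells thinned to 5000 UMIs each, with 38 cells below that depth set aside. Mfap5 was found in 164 of these (86.8%, 81.1 to 91.3), Pdgfra in 148 (78.3%, 71.7 to 84.0), Acta2 in 131 (69.3%, 62.2 to 75.8) and Ibsp in 59 (31.2%, 24.7 to 38.3). In 75 thinned endothelial-marker cells the counts were 1 for Mfap5, 1 for Ibsp and 0 for Pdgfra and Acta2 (which allows a share of up to 4.0%), so these shares lie above background. Of the 189 cells, 90 had all 3 of Acta2, Mfap5 and Pdgfra, 80 had 2, 13 had 1 and 6 had none.

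All 3 genes were found together in 90 of the 189 cells, and whether this differs from what their separate shares would give was not tested. Mfap5 was found in 87.0% of the cells with Acta2 and in 86.2% of those without, and Pdgfra in 78.6% and 77.6%, so detection of Acta2 divided neither. Mfap5 and Pdgfra were found together in 133 cells, and Pdgfra was present in 81.1% of cells with Mfap5 and 60.0% of those without. Ibsp went with Acta2 (38.9% of cells with Acta2, 13.8% without) and against Mfap5 (26.8% with, 60.0% without). These shares rest on cells of 1 pooled sample and carry no test.

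Levels spread more than detection did. Acta2 had a median of 486 CPM per cell and a highest value of 16418, and the 23 highest cells held 55.6% of its UMIs. For Mfap5 and Pdgfra the same number of cells held 36.7% and 30.1%. For Ibsp it was 82.7%, the median cell had 0 and the highest had 54431 CPM. Ibsp was therefore the most unevenly spread of the 4 genes.

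Clustering of the 227 cells on 10 principal components of 1000 variable genes gave 7 groups, numbered by size (47, 40, 40, 37, 32, 20 and 11 cells). The genes that lead a group describe the grouping and are no separate evidence for it, and the borders moved when the settings changed. The share of all genes at least 2-fold higher in a group is not given here. The marker counts below therefore cannot be set beside it and are descriptions only. Over the alternative settings, the overlap of a group with its best match (cells shared divided by cells in either) ran from 0.638 to 1 for group 4, 0.446 to 1 for group 3, 0.40 to 1 for group 6, 0.382 to 0.95 for group 2, 0.286 to 0.97 for group 5, 0.225 to 0.813 for group 1 and 0.02 to 1 for group 7. The lowest value of group 7 was without the mixed cells, and at a resolution of 0.3, with them, it was 0.15.

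Group 3 was the group high in Ibsp. It held 40 cells, 38 of them with Ibsp, at 14176 CPM (13895 to 14461) against 512 CPM in the other fibroblasts, and no single cell held more than 9.14% of the group's Ibsp. It was led further by Bmp7, Apod, Lum, Inhba, Tgfbi, Actg2 and Htra1. Over summed UMIs it had the highest Dcn (10068 CPM) and Acta2 (2739 CPM), and the lowest Mfap5 (584 CPM). Over single cells the lowest Mfap5 median was that of group 7, at 164 CPM against 397 in group 3. Of the 8 smooth muscle markers 6 were at least 2-fold higher than in the other fibroblasts, but Actg2 was found in 11 of its 40 cells and 4 of the 40 met the smooth muscle rule. Pdgfra was found in 36 of the 40. The group was left unnamed, since markers of several types met in it.

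Group 4 was alveolar fibroblast-like. Of 12 such markers 9 were at least 2-fold higher than in the other fibroblasts, among them Inmt (1714 CPM, in all 37 cells), Tcf21 (329 CPM, in 36) and Col13a1 (152 CPM, in 26). Of 12 inflammatory fibroblast markers 5 were also at least 2-fold higher (Saa3, Lcn2, Cxcl12, Il6 and Cxcl14), and Cxcl14, at 3184 CPM, was found in 36 of 37 cells. The ratio was led by Saa3 and Lcn2, genes of acute inflammation, and these rested on few cells, since Saa3 was found in 5 of 37 and 1 cell held 75.6% of it, and for Lcn2 1 of 15 cells held 63.3%. Wisp2, Mamdc2, Vegfd and Ces1d were spread over 24 to 30 of the 37 cells. Its Dcn level, 595 CPM, was the lowest of the 7 groups, and Ibsp was found in 1 cell. The group held 1 mixed cell.

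Group 2 had the highest Mfap5 (2926 CPM, in 40 of 40 cells) and high Eln (6046 CPM), with Hhip, a hedgehog-binding protein, at 331 CPM in 32 cells. It was led by Ppp1r3a, Angpt2, Adamts15, Mbd1, Pamr1, Lbh, Hhip and Gyg at ratios of 2.13 to 4.23, and only 1 of its cells had an Ibsp UMI. Group 5 had the highest Mgp (70306 CPM) and Apoe (12511 CPM) and the lowest depth, with a median of 9800 UMIs, and was led by Mlana and Igfbp2. Its Spp1 level, 5374 CPM, came from 4 of 32 cells, 1 of which held 91.6%. Both groups were left unnamed.

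Group 1, the largest, was led by the pericyte genes Higd1b and Rgs5, and 8 of 10 pericyte markers were at least 2-fold higher, but Higd1b was found in 6 and Rgs5 in 9 of its 47 cells. Acta2 was found in 43 of the 47 cells (2083 CPM) and Pdgfra in 33, and the group was left unnamed. Group 6 mixed markers of adventitial fibroblasts (8 of 12) and of mesothelium (6 of 8), and 5 of 12 inflammatory fibroblast markers (Cxcl1, Ccl2, Has2, C3 and Ptgs2) and 4 of 12 of matrix-producing activated fibroblasts were also at least 2-fold higher. So were 4 of 10 ATI markers and 3 of 12 epithelial markers. Pi16, a marker of adventitial fibroblasts, was at 2051 CPM and found in 14 of 20 cells, of which 1 held 67.9% of its UMIs, Msln was found in 2 and Upk3b in 1, and no cell had both Pi16 and Msln. Its Spp1 (10351 CPM) was found in 7 cells, and 1 cell held 3179 of the 4844 UMIs. Its Pdgfra level, 72.7 CPM, was the lowest of the groups. Group 7 held 10 of the 11 mixed cells. All 12 ATII, 11 of 12 epithelial and 9 of 10 endothelial markers were at least 2-fold higher there than in the other fibroblasts, and TdTomato was at 4746 CPM, against 130 to 265 CPM in groups 1 to 6.

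**Figure D4:**
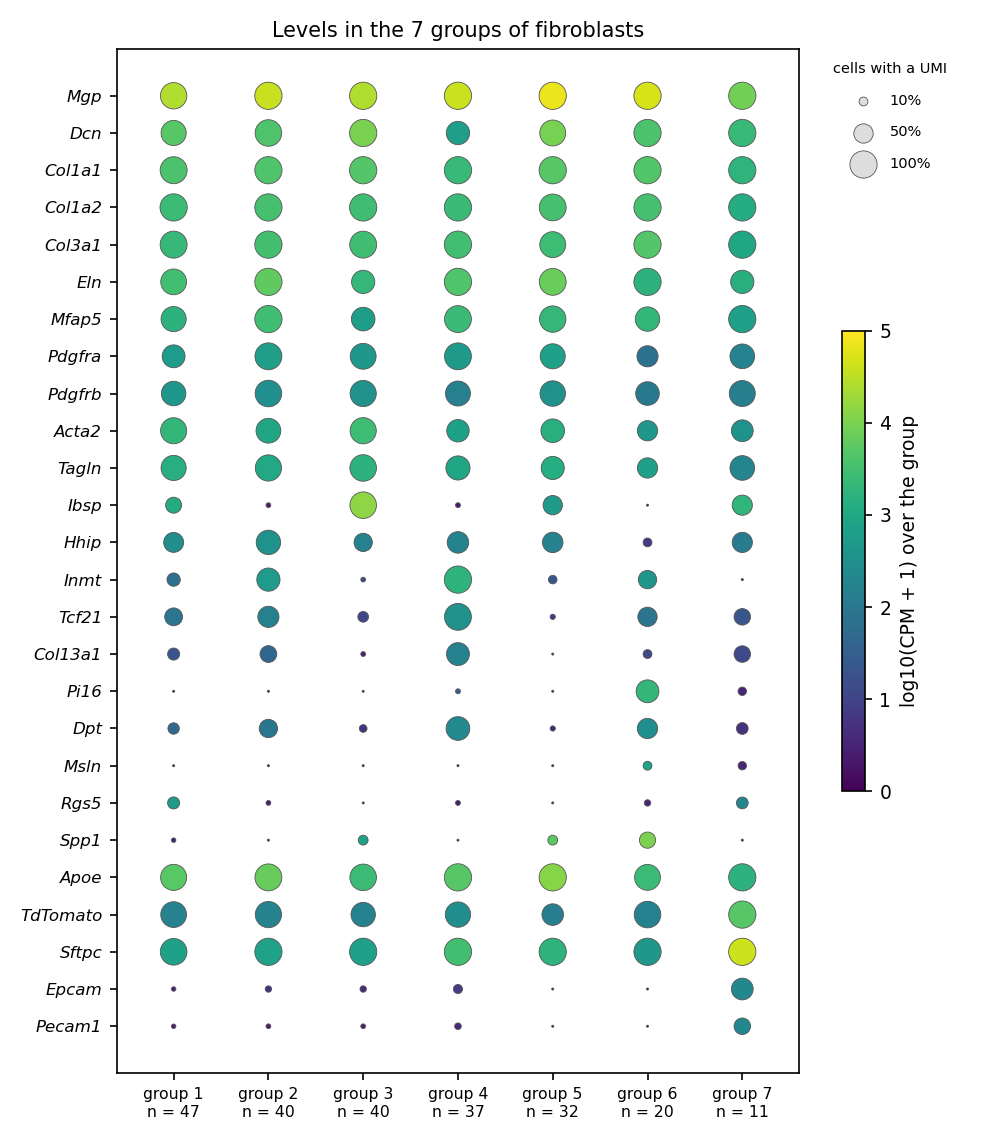
Rows are genes and columns the 7 groups of fibroblasts; colour gives log10(CPM + 1) over the group and the area of a dot the percent of its cells with a UMI. Collagens, Mgp and Dcn appear in every group, Ibsp is high in group 3, Inmt, Tcf21 and Col13a1 in group 4, Pi16 in group 6, and Sftpc, TdTomato, Epcam and Pecam1 in group 7.

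**Figure D5:**
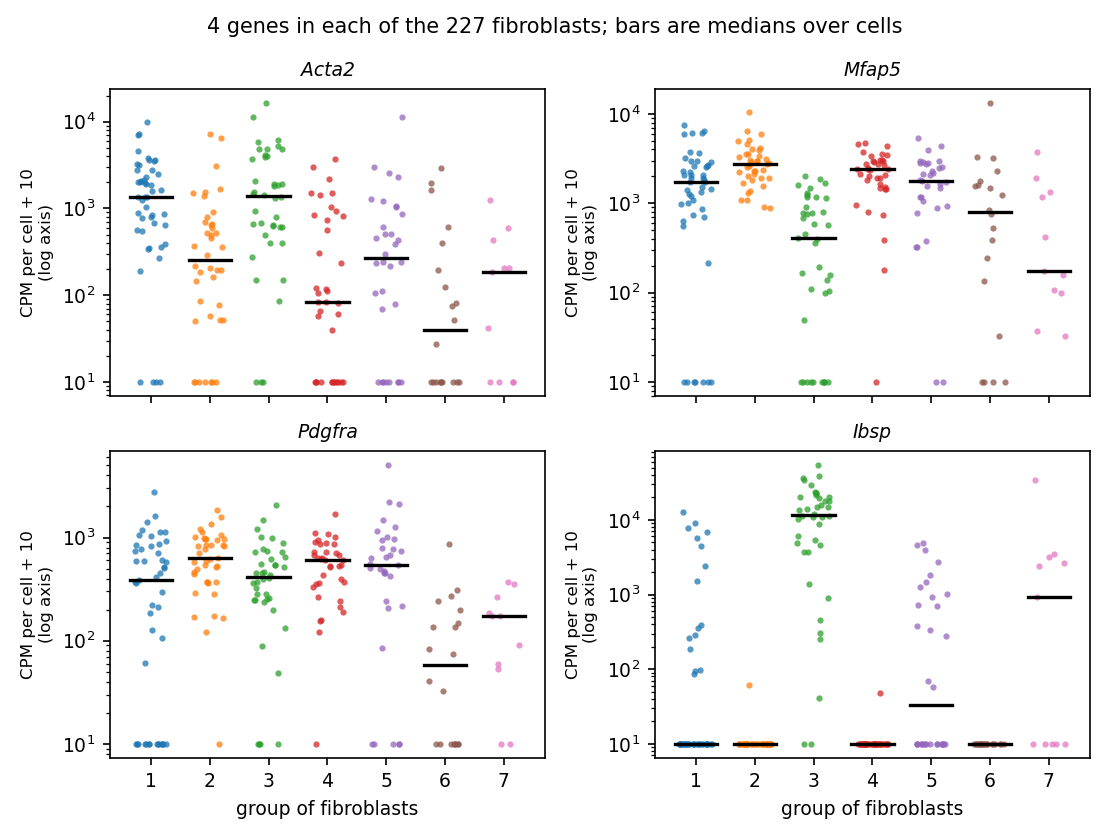
Each point is 1 of the 227 fibroblasts, with its level in CPM plus 10 (log axis) of Acta2, Mfap5, Pdgfra or Ibsp by group; black bars are medians over cells. Acta2 medians are highest in groups 1 and 3 (1362 and 1390 CPM), the Mfap5 median of group 3 is 397 CPM against 2758 in group 2, and 33 of 40 cells of group 3 reach 1000 CPM of Ibsp against none in groups 2, 4 and 6.

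The matrix genes also differed between the groups. Dcn ran from 595 to 10068 CPM and Mgp from 8688 to 70306 CPM, with group 4 lowest for Dcn and group 7 lowest for Mgp. Col1a2 ran from 1183 to 3335 CPM, Col3a1 from 910 to 4656 CPM and Col1a1 from 1784 to 4754 CPM, and for these 3 collagens the lowest value was that of group 7 with its mixed cells. Col1a2 was found in all cells but 1 of groups 1 to 6. Among groups 1 to 6, Wnt5a ran from 66.2 to 303 CPM, Igf1 from 323 to 1983 CPM and Cxcl14 from 1159 to 3184 CPM, with group 6 lowest for Wnt5a and Igf1 and group 4 highest for Cxcl14. Since no cell could be tied to a mouse, groups of cells and mice cannot be told apart.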

How the data were processed

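Sorted tumour cells of 6 mice were profiled by 10x 3′ single-cell RNA sequencing. The deposited values were raw UMI counts, 1 whole number for each gene in each cell. The submitters' processing notes name Cell Ranger 3.0.2 and mm10, and the authors' reference also held GFP and TdTomato. The gene annotation is not given in the sources used here. The study's methods removed putative fibroblasts before the authors' own analysis. The matrix (31055 features, 16017 cells, 266713311 UMIs) holds all libraries, so it was treated as 1 sample, with no test.

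The cells, gene lists (20 by function, 18 of markers) and rules were chosen with earlier results of these data known. Levels are CPM over summed UMIs, with exact Poisson intervals; ratios have exact conditional binomial and shares exact binomial (Clopper-Pearson) intervals, all at 95%, and a count of 0 was set at 3 counts. Cells of a class stem from 1 pooled sample, so no interval covers variation between mice. Genes at 10 CPM or more in either class were compared, and 2-fold was the limit for higher or lower. For shares of cells with a UMI, cells were thinned to 5000 UMIs (seed 42). Fibroblasts were clustered with scanpy 1.11.5 (1000 variable genes, 10 principal components, 15 neighbours, Leiden resolution 0.5, igraph 0.11.9). A group was named only from the marker lists. Doublets were kept, and cells that met the rule of another type are shown apart. The genes the text names were drawn from the selecting genes, the given markers, Acta2, Mfap5, Pdgfra, the reporters and Stk11; the 5 highest genes of each list and all its lower genes; outside the lists the 15 genes with the largest ratio and the 5 with the largest ratio the other way, at 100 CPM or more; and 8 genes per group. Marker lists of other cell types are given by counts and sums, with few of their genes named. Others (the most abundant transcripts, Apoe, Il6, Ccl2, Has2, Ptgs2, Mmp12, Eng, S100b, Mbp, Cd79b, Trpc6, the genes named as at 0, and the markers that define or count pericyte, mesothelial and smooth muscle cells) were named after their values had been seen. Gene IDs matched GENCODE M21 (GRCm38, the same build as mm10) for 30934 of 31055 features. Scripts ran in Python 3.11.15 with pandas 2.3.3, matplotlib 3.10.9, scipy 1.17.1 and numpy 2.4.6, and were tested on simulated data. Some genes that the rule names, and 1 allele that all mice share, are not reported here. Alternatives changed the limits on cells, the weighting, the fold, the minimum, the comparator, the thinning and the clustering.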

Additional observations from a re-analysis of the deposited data

How the results depend on the processing

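Of 117 values recomputed under alternatives for the choice of cells, levels, shares and groups, 94 stayed within 1.5 times (counts) or within the interval of the reported value. The number of fibroblasts ran from 198 to 238. The log2 ratios of the 4 markers that did not choose the cells (Mgp, Eln, Mfap5 and Ibsp) ran from 4.97 (Eln against endothelial-marker cells) to 13.03. The counts of genes higher and lower were 1250 and 713 at 4-fold, 3448 and 2110 with a minimum of 1 CPM, and 4858 and 7802 with no minimum, and against endothelial-marker cells they were 1573 and 1679. TdTomato, GFP and the ATII share of UMIs depended on the mixed cells: without them they were 173.5 CPM, 0.275 CPM and 0.132%, and with each cell weighing the same 419 CPM, 0.840 CPM and 0.444%. TdTomato was 635 CPM with 20 UMIs over the selecting genes and 706 CPM with all 4 detected. The ATII share was 0.902% with 5 UMIs, 0.784% with all 4 detected and 0.751% with a mitochondrial limit of 10%. With thinning to 2000 UMIs 54.8%, 78.3% and 52.0% of cells had Acta2, Mfap5 and Pdgfra, and with no thinning 79.3%, 89.4% and 84.6%. At a clustering resolution of 0.3 there were 4 groups. A minimum of 1000 CPM over the selecting genes and comparators that kept cells of several rules were chosen after seeing the data; with the latter, TdTomato was 921 CPM in endothelial-marker and 2460 CPM in myeloid-marker cells. No paired analysis was possible because no cell could be assigned to a mouse and no test was run. Depth limits GFP and Stk11, with 10 and 65 UMIs in the fibroblasts.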
